A study of Mus musculus with 4 samples.

Results

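The genes described here are 6 chemokine genes and 2 colony-stimulating factor (CSF) genes, measured by RNA-seq in mouse keratinocytes. They were chosen by symbol: Cxcl1, Cxcl2, Cxcl5, Cxcl16, Ccl2, Ccl20, Csf1 and Csf3. All 8 have a row in the gene tables, which list 13102 genes. The cells were primary keratinocytes, the epithelial cells of skin, isolated from the epidermis of neonatal C57BL/6 mice and cultured for 48 h in 154CF medium with the supplement HKGS. The 4 groups are cells of Il17rc knockout (KO) mice given interleukin-17A (IL-17A), cells of Il17rd KO mice given IL-17A, wild-type (WT) cells given IL-17A, and untreated WT cells. IL-17A was given at 100 ng/mL for 8 h. Each group has 1 library, so no p-value is given and no difference can be set against a spread between replicates. Knockout cells without IL-17A were not analysed here. A knockout's resting levels and its response to IL-17A therefore cannot be told apart. The kind of allele and the number of mice behind a library were not given in the sources used here.

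Chemokines are small secreted proteins that draw white blood cells along a gradient by binding receptors on those cells. CSFs are secreted growth factors that keep myeloid cells alive and make them multiply and mature. IL-17A, a cytokine made by T cells, acts on epithelial cells through receptor chains that include Il17ra and Il17rc. In skin it is best known for making keratinocytes produce chemokines that attract neutrophils, as in psoriasis. The study asked whether the product of Il17rd is a further receptor for IL-17A.

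Total counts lay between 19711866 and 19904695 per library. Levels are given as CPM, counts scaled to a common library size by TMM factors, with an exact 95% Poisson interval. Ratios carry an exact 95% binomial interval in parentheses. Both cover counting error only, take reads as independent, and describe these libraries rather than the conditions. A gene is called higher or lower where it differed by at least 2-fold and the interval excluded 1, over the 12934 genes that averaged 1 CPM or more. All 8 genes passed that filter. The tables hold genes above 1 CPM in at least 2 libraries. Cxcl5 met this in exactly 2, IL-17A WT and Il17rd KO, and Csf3 in 3. Cxcl5 could thus have a row only through the libraries where it is high. The targeted genes check the labels: Il17rd had 5 counts in Il17rd KO cells, 150 in Il17rc KO cells, 265 in IL-17A WT cells and 252 in untreated WT cells. Il17rc had 439 counts in Il17rc KO cells, 1718 in Il17rd KO cells, 1152 in IL-17A WT cells and 2729 in untreated WT cells, so some of its transcript was still counted in its own knockout. The Y-linked gene Ddx3y also varied, at 749, 2, 233 and 654 counts in the same order. Sex and group cannot be told apart here.

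The keratinocyte label was checked against 8 markers, and all 8 have a row, with summed levels of 34100, 37200, 32000 and 46000 CPM in Il17rc KO, Il17rd KO, IL-17A WT and untreated WT cells. In cultured cells, fewer cells of a type and less RNA per cell cannot be told apart.

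Cxcl1, Cxcl2 and Cxcl5 encode CXC chemokines that attract neutrophils through the receptor Cxcr2. They lie in a chemokine cluster on the plus strand of chromosome 5 that spans 147 kb from Cxcl5 to Cxcl2 (GENCODE M21 on GRCm38). Cxcl5 runs from 90759360 to 90761624, Cxcl1 from 90891241 to 90893115 and Cxcl2 from 90903871 to 90905938. The starts of Cxcl1 and Cxcl2 are 12.6 kb apart. Promoter sequence was found in the RefSeq table (GRCm38.p6) for 4 of the 8 genes, Cxcl1, Cxcl2, Csf1 and Ccl20. The 250 bases before each transcription start, as RefSeq places it, are shown for all 4. In IL-17A WT over untreated WT Cxcl1 and Cxcl2 differed more, at 47.3-fold and 18.97-fold, than Csf1 and Ccl20, at 2.93-fold and 1.64-fold. The 4 sequences were searched on both strands for the NF-kB consensus, the motif of the transcription factor that IL-17A signalling is known to activate. Matches are in capitals. The motifs were chosen after the sequences were read.
Cxcl1, chr5:90890995-90891244, plus strand: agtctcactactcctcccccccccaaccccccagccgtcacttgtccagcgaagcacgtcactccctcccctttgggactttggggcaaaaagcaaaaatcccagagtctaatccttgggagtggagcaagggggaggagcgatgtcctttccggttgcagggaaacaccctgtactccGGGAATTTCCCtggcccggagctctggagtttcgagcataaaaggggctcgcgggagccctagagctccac
Cxcl2, chr5:90903649-90903898, plus strand: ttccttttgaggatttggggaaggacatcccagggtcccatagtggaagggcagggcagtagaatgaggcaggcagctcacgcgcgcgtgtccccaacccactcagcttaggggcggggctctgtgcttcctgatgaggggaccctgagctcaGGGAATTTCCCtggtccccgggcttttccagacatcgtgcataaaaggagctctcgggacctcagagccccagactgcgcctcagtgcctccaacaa
Csf1, chr3:107760470-107760719, minus strand: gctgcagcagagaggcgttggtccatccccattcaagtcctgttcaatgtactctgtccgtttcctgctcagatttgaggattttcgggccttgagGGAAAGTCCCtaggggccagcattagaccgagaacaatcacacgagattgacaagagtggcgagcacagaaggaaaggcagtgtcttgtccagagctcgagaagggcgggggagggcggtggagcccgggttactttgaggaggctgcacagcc
Ccl20, chr1:83116516-83116765, plus strand: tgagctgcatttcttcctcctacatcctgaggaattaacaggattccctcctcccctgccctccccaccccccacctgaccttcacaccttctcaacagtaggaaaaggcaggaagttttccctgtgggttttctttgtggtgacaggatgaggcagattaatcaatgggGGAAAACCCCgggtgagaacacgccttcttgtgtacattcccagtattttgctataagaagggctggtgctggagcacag

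The longest run of bases that the promoters of Cxcl1 and Cxcl2 share is GGGAATTTCCCTGG, 14 bases, which begins 71 bases before the start of Cxcl1 and 97 bases before that of Cxcl2. It opens with GGGAATTTCC, the form of the NF-kB consensus that was read from the Cxcl1 window. That form was found in 28 of 32851 RefSeq promoter windows of the same length (0.0852%). Cxcl1 is among the 28 by construction, and a form with every base fixed is rarer than the consensus. The share is therefore no measure of enrichment. The shared run also matches the consensus on the opposite strand, 1 base further on, so the capitals cover both overlapping matches. Csf1 and Ccl20 hold 1 match each, on the opposite strand. The consensus in any form was present in 7.25% of all windows. GGGCGG, the GC box, lies in the Cxcl2 and Csf1 windows and in 32.7% of all windows. Among the 4 promoters none held TGANTCA (the AP-1 motif, in 6.75% of all windows), TTGCNNAA (a C/EBP form, 9.56%) or TATAAA (12.4%) in these 250 bases. A match is a description of the sequence and does not show that a factor binds there.

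The neutrophil chemokine transcripts were far more abundant in WT cells with IL-17A than in any other library. Cxcl1 had 286 counts in Il17rc KO cells, 468 in Il17rd KO cells, 4443 in IL-17A WT cells and 92 in untreated WT cells. As levels these were 14.3 CPM (12.7 to 16.01), 22.8 CPM (20.8 to 25.0), 227 CPM (220.4 to 234) and 4.80 CPM (3.87 to 5.89). The intervals of the 4 libraries do not overlap, and IL-17A WT stands far above the next library, Il17rd KO. Cxcl1 was 47.3-fold higher (38.5 to 58.8) in IL-17A WT cells than in untreated WT. It was 15.9-fold lower (14.1 to 18.0) in Il17rc KO cells and 9.96-fold lower (9.06 to 10.98) in Il17rd KO cells than in IL-17A WT.

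Cxcl2 encodes a close relative of the Cxcl1 product, also a neutrophil attractant. It had 73 counts in Il17rc KO cells, 82 in Il17rd KO cells, 426 in IL-17A WT cells and 22 in untreated WT cells. The corresponding levels were 3.64 CPM (2.85 to 4.58), 3.99 CPM (3.18 to 4.96), 21.8 CPM (19.8 to 23.9) and 1.15 CPM (0.719 to 1.74). The intervals of the 2 knockouts overlap, and those of the WT libraries lie well above and below them. Cxcl2 was 18.97-fold higher (12.4 to 30.6) in IL-17A WT cells than in untreated WT, 5.98-fold lower (4.66 to 7.77) in Il17rc KO and 5.45-fold lower (4.30 to 6.99) in Il17rd KO than in IL-17A WT. Its transcript matches that of Cxcl3, a neighbour with no row in the tables, at 90.0% identity over 561 bases, or 27.2% of its length. The treatment of reads that match both genes was not stated by the labels, so the Cxcl2 values are uncertain to that extent.

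Cxcl5 encodes the chemokine known in mice as LIX. It had 5 counts in Il17rc KO cells, 70 in Il17rd KO cells, 951 in IL-17A WT cells and 12 in untreated WT cells. Its levels were 0.249 CPM (0.0810 to 0.582), 3.41 CPM (2.66 to 4.31), 48.6 CPM (45.6 to 51.8) and 0.626 CPM (0.323 to 1.09). Only Il17rc KO and untreated WT, the libraries with few reads, overlap. Cxcl5 was 77.6-fold higher (44.2 to 151) in IL-17A WT cells than in untreated WT. It was 195-fold lower (83.2 to 602) in Il17rc KO and 14.3-fold lower (11.2 to 18.5) in Il17rd KO than in IL-17A WT. No other transcript of the annotation matched that of Cxcl5, by the search that paired Cxcl2 with Cxcl3.

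**Figure D1:**
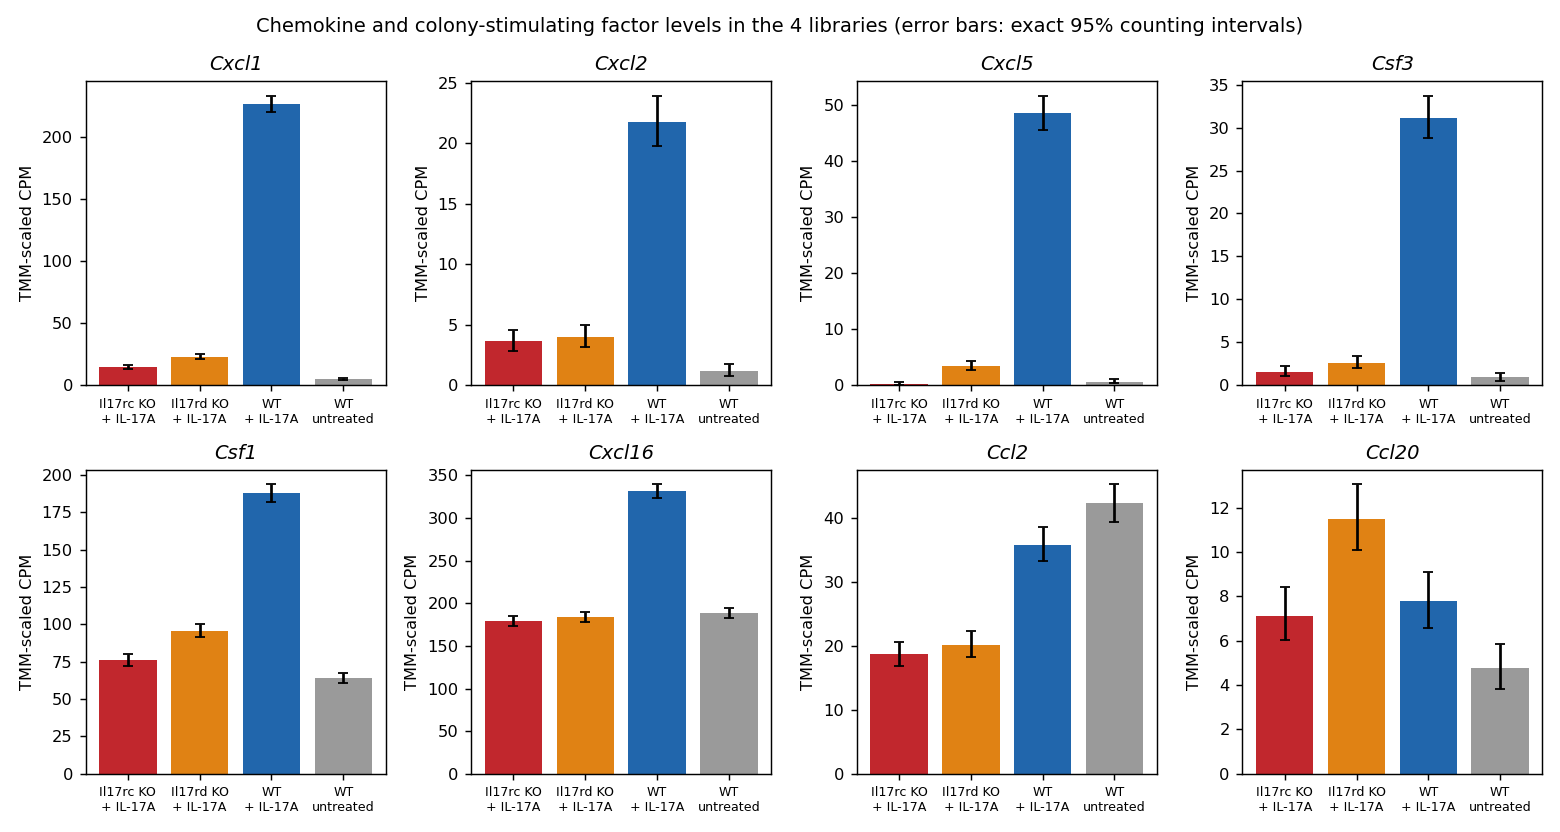
Each panel plots 1 gene, with the level in TMM-scaled CPM on a linear axis from 0 and 1 bar per library; error bars are exact 95% Poisson intervals of the counts. The IL-17A WT bar is the highest for Cxcl1, Cxcl2, Cxcl5, Csf3, Csf1 and Cxcl16, while Ccl2 is highest in untreated WT at 42.4 CPM and Ccl20 in Il17rd KO at 11.5 CPM.

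Together these transcripts summed to 18.2 CPM in Il17rc KO, 30.2 CPM in Il17rd KO, 297 CPM in IL-17A WT and 6.57 CPM in untreated WT. Cxcl1 made up most of that sum in every library, at 78.6% of counts (74.0 to 82.7), 75.5% (71.9 to 78.8), 76.3% (75.2 to 77.4) and 73.0% (64.4 to 80.5) in the same order, with exact Clopper-Pearson intervals that overlap. The rest was divided differently. Cxcl5 supplied 1.37% (0.447 to 3.18) of the sum in Il17rc KO, 11.3% (8.91 to 14.0) in Il17rd KO, 16.3% (15.4 to 17.3) in IL-17A WT and 9.52% (5.02 to 16.0) in untreated WT. Cxcl2 supplied 20.1% (16.1 to 24.5), 13.2% (10.7 to 16.1), 7.32% (6.66 to 8.02) and 17.5% (11.3 to 25.2). Cxcl2 thus took a larger share than Cxcl5 in Il17rc KO cells and a smaller share in IL-17A WT cells, beyond counting error.

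Csf3 (chromosome 11, 98701263 to 98703629, plus strand) encodes G-CSF, the growth factor that makes bone marrow release and produce neutrophils. It had 31 counts in Il17rc KO cells, 53 in Il17rd KO cells, 610 in IL-17A WT cells and 17 in untreated WT cells. Its levels were 1.55 CPM (1.05 to 2.19), 2.58 CPM (1.93 to 3.38), 31.2 CPM (28.7 to 33.7) and 0.887 CPM (0.517 to 1.42). IL-17A WT alone is high, and the intervals of Il17rc KO overlap those of both Il17rd KO and untreated WT. Csf3 was 35.2-fold higher (21.8 to 60.7) in IL-17A WT cells than in untreated WT, 20.2-fold lower (14.1 to 29.9) in Il17rc KO and 12.08-fold lower (9.11 to 16.3) in Il17rd KO than in IL-17A WT.

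Csf1 (chromosome 3, 107741048 to 107760469, minus strand) encodes M-CSF, on which macrophages depend. It was well expressed in all libraries, with 1526 counts in Il17rc KO cells, 1964 in Il17rd KO cells, 3672 in IL-17A WT cells and 1227 in untreated WT cells. These are 76.1 CPM (72.3 to 80.0), 95.6 CPM (91.4 to 99.95), 188 CPM (182 to 194) and 64.0 CPM (60.5 to 67.7), with no overlap between any of the libraries. Csf1 was 2.93-fold higher (2.75 to 3.13) in IL-17A WT cells than in untreated WT and 2.47-fold lower (2.32 to 2.62) in Il17rc KO than in IL-17A WT. In Il17rd KO it was 1.96-fold lower (1.86 to 2.07) than in IL-17A WT, just under the size called.

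Cxcl16 (chromosome 11, 70453983 to 70459984, minus strand) encodes a chemokine held on the cell membrane until a protease sheds it, and its receptor Cxcr6 is carried by T and natural killer cells. It had 3585 counts in Il17rc KO cells, 3785 in Il17rd KO cells, 6488 in IL-17A WT cells and 3619 in untreated WT cells. The levels were 179 CPM (173 to 185), 184 CPM (179 to 190.3), 332 CPM (324 to 339.7) and 189 CPM (183 to 195.0). IL-17A WT stands above the other libraries, whose intervals overlap each other. Cxcl16 was 1.76-fold higher (1.69 to 1.83) in IL-17A WT cells than in untreated WT, 1.85-fold lower (1.78 to 1.93) in Il17rc KO and 1.80-fold lower (1.73 to 1.87) in Il17rd KO than in IL-17A WT, so it was not called. Its exons share bases with those of Zmynd15 on the opposite strand. Zmynd15 had 161, 247, 454 and 269 counts in Il17rc KO, Il17rd KO, IL-17A WT and untreated WT cells, and no label says whether the counting used strand, so reads of the shared bases cannot be told apart.

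Ccl2 (chromosome 11, 82035571 to 82037453, plus strand) encodes MCP-1, the main attractant of monocytes, which carry its receptor Ccr2. It had 375 counts in Il17rc KO cells, 416 in Il17rd KO cells, 703 in IL-17A WT cells and 812 in untreated WT cells, or 18.7 CPM (16.9 to 20.7), 20.3 CPM (18.4 to 22.3), 35.9 CPM (33.3 to 38.7) and 42.4 CPM (39.5 to 45.4). The 2 knockouts overlap each other and lie below both WT libraries. Ccl2 was 1.18-fold lower (1.07 to 1.31) in IL-17A WT cells than in untreated WT. It was 1.92-fold lower (1.69 to 2.18) in Il17rc KO and 1.77-fold lower (1.57 to 2.01) in Il17rd KO than in IL-17A WT, and was not called in these comparisons, although scaling by upper-quartile factors calls it lower in Il17rc KO.

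Ccl20 (chromosome 1, 83116766 to 83119167, plus strand) encodes the ligand of Ccr6, a receptor of IL-17-producing T cells and of Langerhans cell precursors. It was the least abundant of the 8 per length in IL-17A WT. It had 143 counts in Il17rc KO cells, 236 in Il17rd KO cells, 152 in IL-17A WT cells and 91 in untreated WT cells. These are 7.13 CPM (6.01 to 8.40), 11.5 CPM (10.1 to 13.1), 7.77 CPM (6.58 to 9.10) and 4.75 CPM (3.82 to 5.83). Il17rd KO is the highest library, Il17rc KO and IL-17A WT overlap, and untreated WT is the lowest. Ccl20 was 1.64-fold higher (1.25 to 2.15) in IL-17A WT cells than in untreated WT, 1.09-fold lower (0.861 to 1.38) in Il17rc KO than in IL-17A WT, and 1.48-fold higher (1.202 to 1.826) in Il17rd KO than in IL-17A WT.

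By the rule of size, IL-17A WT cells had 5 of the 8 genes higher and 0 lower against untreated WT, where 8.97% of all genes tested were higher and 10.7% lower (19.7% either way). The 5 are Cxcl1, Cxcl2, Cxcl5, Csf1 and Csf3. The median log2 ratio over the 8 genes was 2.84, against 0.0041 over all genes tested. Cxcl5, Cxcl1, Csf3 and Cxcl2 held places 7, 10, 17 and 28 from the top of the 12934 ratios.

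In Il17rc KO cells 5 of the 8 were lower and 0 higher than in IL-17A WT, with 4.84% of all genes lower and 6.22% higher (11.1% either way). They are the same 5 genes, and the median over the 8 was -1.92, against 0.0422 over all genes. In Il17rd KO cells 4 of the 8 were lower and 0 higher, with 3.73% of all genes lower and 6.27% higher (10.0% either way), and the median was -1.69, against 0.0105. The 4 are Cxcl1, Cxcl2, Cxcl5 and Csf3. All of these comparisons use the IL-17A WT library, so they share its errors, and a high value in that library moves each of them.

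**Figure D2:**
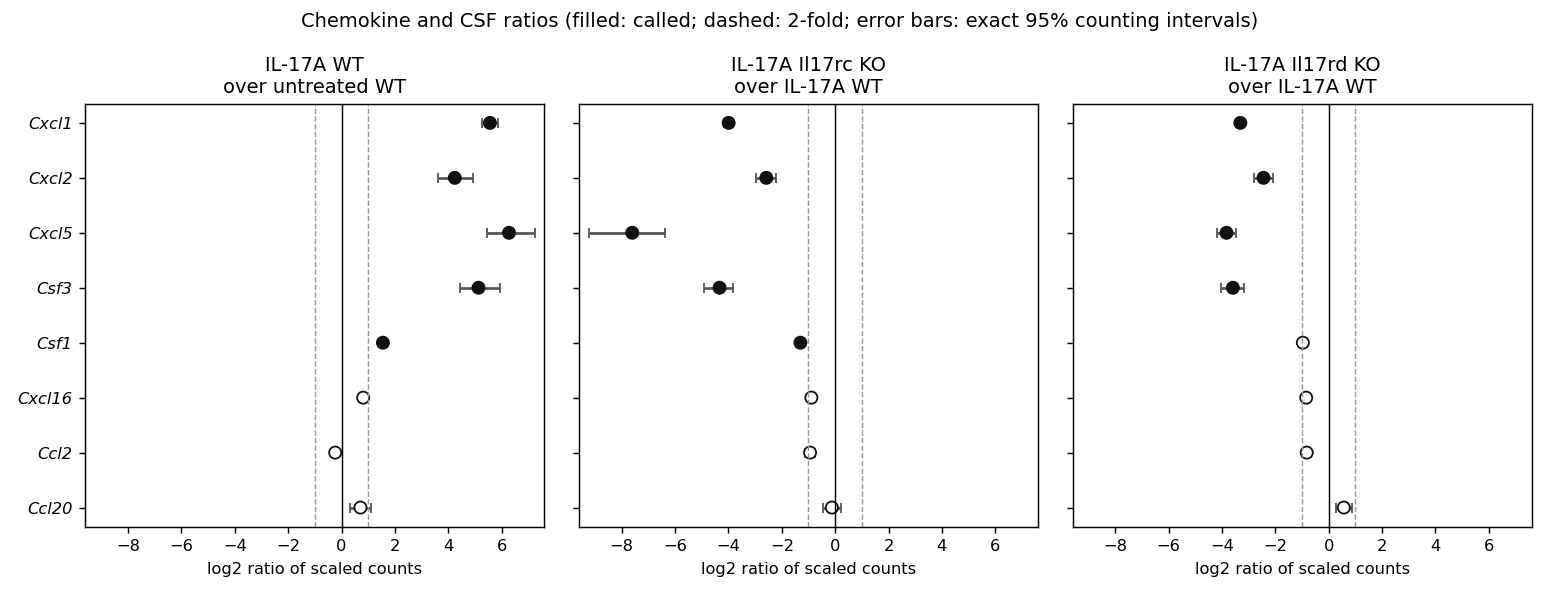
Log2 ratios of scaled counts for the 8 genes in IL-17A WT over untreated WT, Il17rc KO over IL-17A WT and Il17rd KO over IL-17A WT; error bars are exact 95% counting intervals, dashed lines mark 2-fold, and filled points are called by the rule of size. Cxcl1, Cxcl2, Cxcl5 and Csf3 lie far outside the dashed lines in each panel, and Csf1, Cxcl16 and Ccl2 lie close to them in both knockouts.

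**Figure D3:**
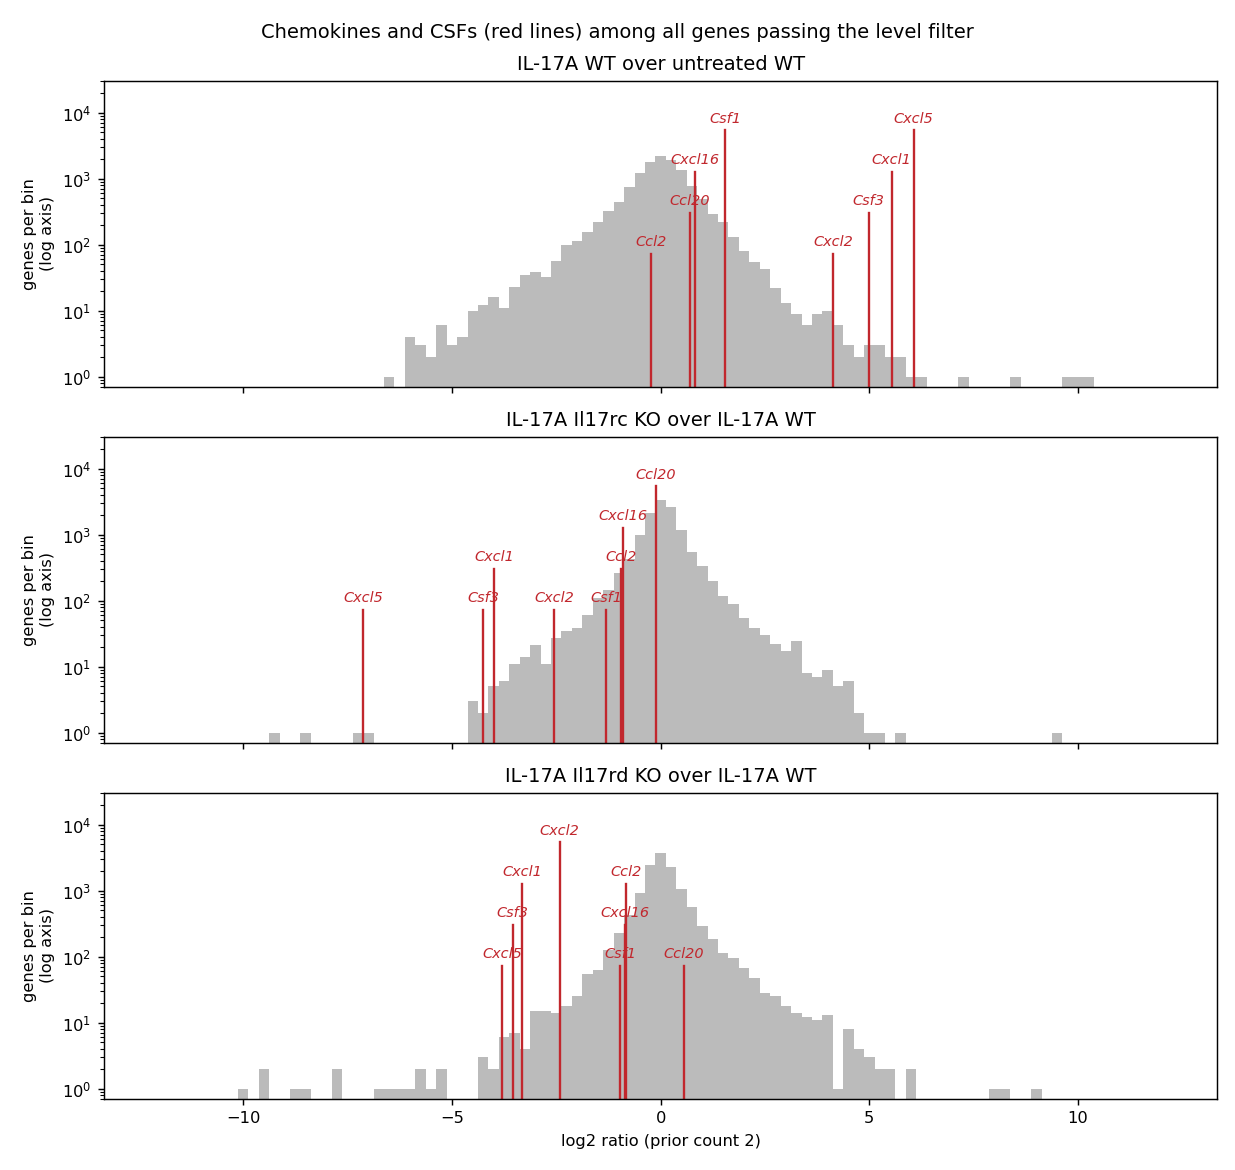
Grey bars count all 12934 tested genes per bin of 0.25 in log2 ratio, on a log axis, and red lines mark the 8 genes. Cxcl5, Cxcl1, Csf3 and Cxcl2 sit in the right tail in IL-17A WT over untreated WT and in the left tail in both knockouts. Ccl20 sits within or near the bulk in each panel. Ccl2 sits within it in IL-17A WT over untreated WT and toward its left edge in Il17rc KO and Il17rd KO, at -0.94 and -0.82.

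The knockouts were set against each other to describe where their levels differed under the same cytokine. Cxcl5 was 13.7-fold lower (5.59 to 43.4) in Il17rc KO than in Il17rd KO and was the 1 gene of the 8 that was called, with 2.75% of all genes called lower and 1.49% higher (4.24% either way). That ratio sets 5 counts in Il17rc KO against 70 in Il17rd KO. Cxcl5 has a row only through Il17rd KO and IL-17A WT, so its high side here also helped to admit it. Smaller differences, under the size called, were found for Cxcl1 at 1.60-fold lower (1.38 to 1.86), for Ccl20 at 1.61-fold lower (1.304 to 1.997), for Csf3 at 1.67-fold lower (1.05 to 2.69) and for Csf1 at 1.26-fold lower (1.18 to 1.34). The interval included 1 for Cxcl2, at 1.10-fold lower (0.790 to 1.53), for Ccl2, at 1.08-fold lower (0.940 to 1.25), and for Cxcl16, at 1.03-fold lower (0.985 to 1.08). All 8 genes had their lower value in Il17rc KO, but for Cxcl2, Ccl2 and Cxcl16 the difference was within counting error. The median log2 ratio was -0.50, against 0.0169 over all genes.

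Set against untreated WT cells, 2 of the 8 were higher and 1 lower in Il17rc KO cells with IL-17A, with 7.27% of all genes higher and 7.0% lower (14.3% either way). Cxcl1 stood 2.97-fold higher (2.34 to 3.80), Cxcl2 stood 3.17-fold higher (1.95 to 5.37), and Ccl2 stood 2.27-fold lower (2.002 to 2.57). In Il17rd KO cells 5 were higher and 1 lower, with 5.36% of all genes higher and 3.35% lower (8.71% either way). The higher genes were Cxcl5 by 5.45-fold (2.93 to 11.04), Cxcl1 by 4.75-fold (3.79 to 6.00), Cxcl2 by 3.48-fold (2.15 to 5.85), Csf3 by 2.91-fold (1.66 to 5.36) and Ccl20 by 2.42-fold (1.89 to 3.12). Ccl2 was 2.09-fold lower (1.86 to 2.36), a call that is lost with plain library totals. Cxcl16 was within 1.06-fold of untreated WT in both knockouts.

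A knockout level can also be placed on the scale that runs from untreated WT at 0% to IL-17A WT at 100%, for the genes called between those libraries. Csf3 stood at 2.18% in Il17rc KO and 5.59% in Il17rd KO, Cxcl1 at 4.26% and 8.09%, Cxcl2 at 12.1% and 13.8%, and Csf1 at 9.78% and 25.6%. Cxcl5 stood at -0.785% in Il17rc KO and at 5.80% in Il17rd KO. Its Il17rc KO level, from 5 counts, was 2.51-fold lower than in untreated WT, with an interval that included 1 (0.823 to 9.10). Each of these genes stood lower in Il17rc KO than in Il17rd KO, for Cxcl2 by less than counting error.

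Levels can be compared between genes per length, as FPKM deposited by the authors. In IL-17A WT the order was Cxcl1 at 121 FPKM, Cxcl16 at 109.5 FPKM, Csf1 at 35.5 FPKM, Ccl2 at 31.5 FPKM, Cxcl5 at 26.03 FPKM, Csf3 at 22.0 FPKM, Cxcl2 at 10.5 FPKM and Ccl20 at 5.46 FPKM. In untreated WT Cxcl16 led at 62.4 FPKM, before Ccl2 at 37.1 FPKM and Csf1 at 12.1 FPKM, and the other genes lay at 3.33 FPKM or below. There the counting intervals of Ccl20 and Cxcl1 overlapped, as did those of Csf3 and Cxcl2 and of Cxcl2 and Cxcl5. In both knockouts Cxcl16 led as well, at 59.1 FPKM in Il17rc KO and 60.9 FPKM in Il17rd KO. Ccl2 and Csf1 came next with overlapping intervals, at 16.4 and 14.4 FPKM in Il17rc KO and at 17.8 and 18.1 FPKM in Il17rd KO. The 8 genes summed to 105 FPKM in Il17rc KO, 122 FPKM in Il17rd KO, 361 FPKM in IL-17A WT and 119 FPKM in untreated WT.

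For each gene the table, without the 8 genes themselves, was searched for the genes with the most alike pattern, as the root mean square difference of log2 CPM, centred on the gene's mean, over the 4 libraries. Closest to Cxcl1 outside the 8 were Mmp9, a gelatinase gene, at 0.19, Kcnn4, a potassium channel gene, at 0.362 and Hmga2, a chromatin protein gene, at 0.381. Among the 8, Csf3 lay at 0.326 from Cxcl1. Csf3 was closest to Hmga2 at 0.0881, then to Il1a, a cytokine gene, at 0.241 and to the keratin gene Krt8 at 0.325. Cxcl2 was closest to Tnnt2, Aldh1a3 and Wfdc2, at 0.211, 0.217 and 0.219. For Cxcl5 the closest genes outside the 8, Mmp9, Il1a and Hmga2, were farther away, at 1.06, 1.07 and 1.15, and Csf3 lay at 1.13. Csf1 was nearest to Lpar6 at 0.0095, Cxcl16 to Socs1 at 0.0276, Ccl2 to Pdgfb at 0.0676 and Ccl20 to Zfp882 at 0.0452. With 4 points per gene, small differences between genes of few reads can arise by counting error.

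Of 13 other CXC, CX3C and XC chemokine genes 4 have a row. Against untreated WT, IL-17A WT had 3 of these higher and 1 lower, the median log2 ratio being 1.26. Of all genes tested, 8.97% were higher and 10.7% lower there. Cxcl10, an attractant of activated T cells, and Cx3cl1, a membrane-bound attractant of monocytes, had log2 ratios of 1.97 and 1.42. Cxcl12, also called higher, was at 1.11. Cxcl14, a chemokine of resting skin, was lower, at -1.70. Against IL-17A WT 2 were lower and 1 higher in Il17rc KO, with a median of -0.44, and 3 were lower and 0 higher in Il17rd KO, with a median of -1.14. Cx3cl1 had 15 counts in Il17rc KO, 69 in Il17rd KO, 162 in IL-17A WT and 58 in untreated WT, and Cxcl10 had 54, 63, 154 and 37. Cxcl14 was at 1.11 in Il17rc KO and 0.55 in Il17rd KO, over IL-17A WT. Of 20 other CC chemokine genes 3 have a row and 2 passed the level filter, 1 of them lower and 0 higher in WT cells with IL-17A. That gene, Ccl27a, a keratinocyte chemokine that draws T cells to skin, had a log2 ratio of -1.65 in IL-17A WT over untreated WT, with 143, 174, 121 and 375 counts in Il17rc KO, Il17rd KO, IL-17A WT and untreated WT. Neither CC gene was called in the knockouts against IL-17A WT.

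Of 10 receptors and decoy receptors of these proteins 2 have a row. Csf1r, the Csf1 receptor of macrophages, had 17 counts in Il17rc KO, 44 in Il17rd KO, 48 in IL-17A WT and 94 in untreated WT. Ackr3, a scavenging chemokine receptor, had 93, 407, 225 and 327 counts. Both were lower in Il17rc KO than in IL-17A WT, at log2 ratios of -1.43 and -1.29. Neither was called in Il17rd KO over IL-17A WT or in IL-17A WT over untreated WT. In the latter Csf1r was just under the size called, at 2.0-fold lower (1.4 to 2.89). It was called lower in Il17rd KO than in untreated WT, at 2.29-fold (1.58 to 3.35), and Ackr3 was not. Cxcr2, Ccr2, Ccr6, Cxcr6 and Csf3r have no row and so were not analysed here. A list for the shedding or cutting of chemokines had 7 measured genes, of which Rhbdf1 and Rhbdf2 do not encode active proteases. Adam10 and Adam17, also listed, are known to release Cxcl16. Both lay within 0.11 of 0 in log2 ratio in IL-17A WT over untreated WT and in either knockout over IL-17A WT. Mmp9 was at 5.81 in IL-17A WT over untreated WT, and at -4.51 in Il17rc KO and -3.51 in Il17rd KO over IL-17A WT. In these comparisons 1 higher and 1 lower, 0 higher and 1 lower, and 1 higher and 1 lower of the 7 were called, with medians of 0.0373, -0.00485 and 0.0738. The shares over all genes tested were 8.97% higher and 10.7% lower, 6.22% higher and 4.84% lower, and 6.27% higher and 3.73% lower.

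Many chemokine and CSF transcripts are known to be short-lived, through AU-rich elements in the 3' untranslated region (UTR) that contain ATTTA. In the longest annotated 3' UTR of each gene, Cxcl1 held 7 copies of ATTTA, or 11.8 per kb, Csf3 held 6 or 8.97 per kb, Ccl20 9 or 8.57 per kb, Cxcl2 11 or 7.36 per kb, and Cxcl5 5 or 4.5 per kb. A density as high was found in 0.468%, 1.11%, 1.28%, 2.17% and 8.01% of 11755 measured genes, whose median was 1.34 per kb. Ccl2, Csf1 and Cxcl16 were at 3.64, 1.89 and 1.41 per kb, and as high a density was found in 13.1%, 37.8% and 48.4% of genes. The density of Ccl20 lay between those of Csf3 and Cxcl2, and its level in IL-17A WT was within 2-fold of untreated WT. Transcript stability was not measured, and the part of these elements in the differences was not tested.

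A list for the decay or stability of such transcripts held 14 genes, among them Tnip1, which is not a decay or stability factor. Of the 14, 1 was higher and 2 lower in IL-17A WT cells than in untreated WT cells, the median log2 ratio being 0.33. Of all genes tested, 8.97% were higher and 10.7% lower there. Zc3h12a, a ribonuclease that degrades inflammatory transcripts, had 646 counts in Il17rc KO, 3274 in Il17rd KO, 3322 in IL-17A WT and 1095 in untreated WT. It was 1.06-fold lower (1.01 to 1.12) in Il17rd KO than in IL-17A WT, and in Il17rc KO the difference was 5.27-fold (4.84 to 5.74), also lower. Zfp36 and Zfp36l1, whose proteins bind AU-rich elements and promote decay, were lower in IL-17A WT cells than in untreated WT, at -1.16 and -1.04. Zfp36l2 was lower in Il17rd KO than in IL-17A WT, at -1.17. In each knockout over IL-17A WT 1 of the 14 was lower and 0 higher, with medians of -0.0031 in Il17rc KO and -0.0755 in Il17rd KO. Of all genes tested, 4.84% were lower and 6.22% higher in Il17rc KO, and 3.73% lower and 6.27% higher in Il17rd KO.

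Transcription factors linked to IL-17 target genes had 2 of 16 higher and 3 lower in IL-17A WT against untreated WT, with a median of -0.61. Of all genes tested, 8.97% were higher and 10.7% lower there. Nfkbiz, a co-activator with NF-kB that is needed for many IL-17 targets, had 1659 counts in Il17rc KO, 4209 in Il17rd KO, 4338 in IL-17A WT and 1257 in untreated WT. It was 1.08-fold lower (1.04 to 1.13) in Il17rd KO than in IL-17A WT, and in Il17rc KO the difference was 2.68-fold (2.53 to 2.84), also lower. Fosl1, an AP-1 subunit gene, was at 2.34 in IL-17A WT over untreated WT and at -0.88 in Il17rc KO and -1.83 in Il17rd KO over IL-17A WT. Jun was higher in both knockouts than in IL-17A WT, at 1.37 and 1.02 in Il17rc KO and Il17rd KO. In all, 1 was higher and 2 lower in Il17rc KO, and 2 higher and 1 lower in Il17rd KO, with medians of 0.331 and 0.164. Of all genes tested, 6.22% were higher and 4.84% lower in Il17rc KO, and 6.27% higher and 3.73% lower in Il17rd KO. Of 19 IL-17 receptor chains and adaptors, 3 were called lower and 0 higher in WT cells with IL-17A than in untreated WT. Over IL-17A WT, 1 was higher and 2 lower in Il17rc KO, and 2 higher and 1 lower in Il17rd KO. The lower genes include the targeted ones, as the genotypes fix: Il17rc at -1.42, beside Ikbke at -1.28, in Il17rc KO, and Il17rd at -5.31 in Il17rd KO. The medians of these comparisons were -0.0894, -0.00052 and -0.0023. The shares over all genes are those given for the transcription factors. Il17ra, the shared chain, had 577, 558, 462 and 548 counts in Il17rc KO, Il17rd KO, IL-17A WT and untreated WT.

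**Figure D4:**
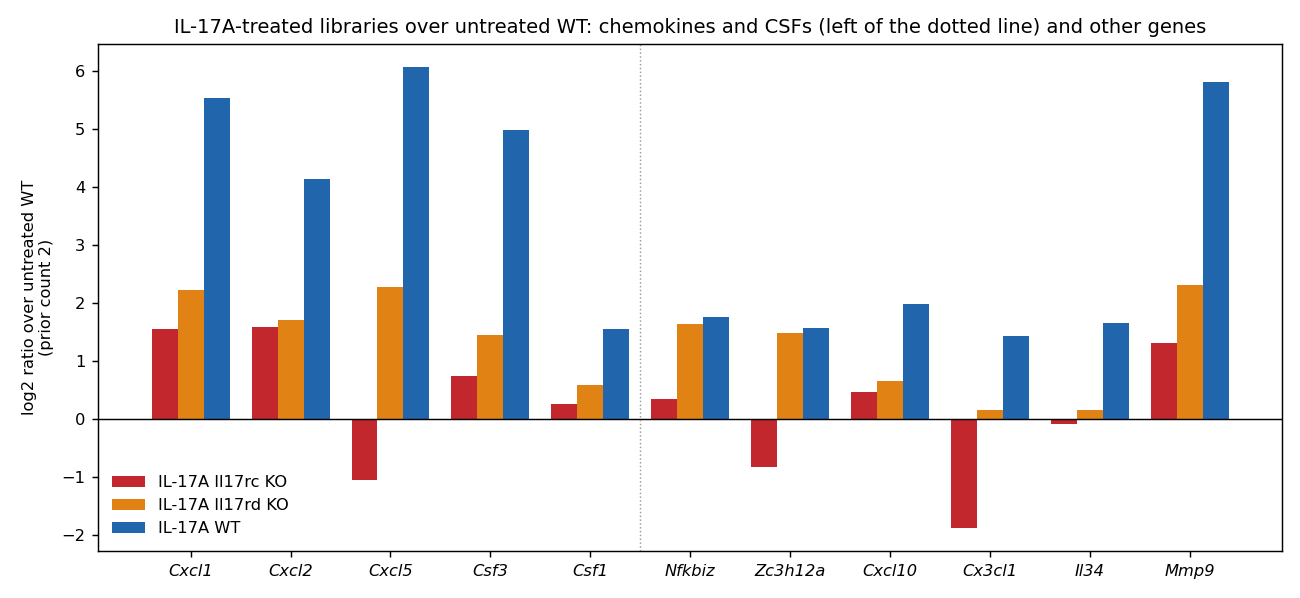
Log2 ratios over untreated WT (prior count 2) of the Il17rc KO, Il17rd KO and WT libraries given IL-17A, for 5 of the 8 genes left of the dotted line and for 6 other genes, chosen after their values were seen, to the right. Nfkbiz and Zc3h12a reach 1.64 and 1.48 in Il17rd KO, close to 1.76 and 1.57 in IL-17A WT, while Cxcl1, Cxcl2, Cxcl5 and Csf3 lie far lower in Il17rd KO than in IL-17A WT.

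Markers of other cells differed between the libraries as well. Of 10 fibroblast markers 8 have a row, none at 0 counts, while Dcn and Lum have no row and were not analysed here. The summed level of these 8 markers was 44.8 CPM in Il17rc KO, 57.1 CPM in Il17rd KO, 11.4 CPM in IL-17A WT and 77.8 CPM in untreated WT. IL-17A WT had 7 of the 8 markers lower and 0 higher against untreated WT. Of all genes tested, 10.7% were lower and 8.97% higher there. The summed fibroblast marker level was thus lowest in IL-17A WT, where Cxcl1, Cxcl2, Cxcl5 and Csf3 were highest, although the marker Fbn1 was highest there too, at 2.49, 2.39, 3.68 and 3.13 CPM in the same order. Of 11 macrophage or monocyte markers 5 have a row, with summed levels of 34.1, 55.5, 45.7 and 82.8 CPM in the same order of libraries. In Il17rc KO over IL-17A WT 3 of the 5 were called lower and 0 higher, with 4.84% of all genes called lower. The marker Cd68 went the other way there, at 1.57-fold higher (1.37 to 1.80), under the size called. Ptprc, Adgre1 and Itgam have no row and were not analysed here. Krt1, a keratin of differentiating keratinocytes, had 12388, 22536, 756 and 48645 counts in that order.

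Of 5 T cell markers Thy1 alone has a row, at 22, 41, 11 and 54 counts in Il17rc KO, Il17rd KO, IL-17A WT and untreated WT. Of 5 Langerhans cell markers 2 have a row, with 223, 174, 683 and 96.0 CPM in the same order. Nearly all of that is Epcam, which keratinocytes also express, and H2-Eb1 had 41, 47, 10 and 28 counts. Of 5 neutrophil markers S100a8 and S100a9 have a row, and keratinocytes make both, with summed levels of 26.3, 294, 72.7 and 9.28 CPM. All 7 melanocyte markers have a row, with 2040, 2200, 1590 and 2430 CPM, and 2 of 4 endothelial markers, with 7.88, 10.5, 17.6 and 10.4 CPM. The part of these cells, of differentiation or of sex in the chemokine and CSF differences was not tested.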

How the data were processed

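RNA-seq gene tables of 4 libraries, 1 per group, were analysed. Per the submitters' processing notes, Trim Galore 0.4.4, HISAT2, featureCounts of Subread and edgeR were used with build mm10. Settings, annotation and strand use were not given in the sources used here. Deposited counts are raw whole numbers for each gene. The FPKM values deposited by the authors imply library sizes of 1.05, 1.07 and 1.02 times untreated WT in the Il17rc KO, Il17rd KO and IL-17A WT libraries, as TMM scaling gives.

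TMM factors from edgeR 4.0.16 scaled the 4 library totals (19711866 to 19904695 counts), and genes with a mean under 1 CPM were left out. Ratios of scaled counts have exact conditional binomial 95% intervals (scipy 1.17.1), and log2 ratios use a prior count of 2. Reads were taken as independent, so the intervals cover counting error only. Of the 13102 symbols 17 had been turned into dates and were not named. The 8 genes, the lists and the motifs were chosen with earlier results of these data known. Named are the 8 genes, Il17ra, Il17rc and Il17rd, and all measured genes of the receptor list. Up to 4 called genes a list, by size of log2 ratio, and the 3 genes outside the 8 most alike to each were also named. Not every gene so selected is given. Ddx3y, Zmynd15, Adam10, Adam17 and the markers named one by one were added after their values were seen. Transcript matches were searched with BLAST+ 2.17.0 in GENCODE M21. Scaling with DESeq2 1.42.0 size factors, library totals and upper-quartile factors, other filters and other fold limits were tried as alternatives.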

Additional observations from a re-analysis of the deposited data

How the results depend on the processing

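With 1 library per group no library could be left out, and no paired analysis was possible because each group has 1 library. Depth limits Cxcl2, Cxcl5 and Csf3, whose libraries other than IL-17A WT hold 5 to 82 counts. Genes called numbered 2544 in IL-17A WT over untreated WT, 1430 and 1294 in Il17rc KO and Il17rd KO over IL-17A WT, 549 in Il17rc KO over Il17rd KO, and 1845 and 1126 in Il17rc KO and Il17rd KO over untreated WT. In the same order they numbered 1396, 742, 641, 195, 948 and 522 with a mean of at least 10 CPM, 683, 371, 360, 120, 424 and 162 at 4-fold, and 4753, 2854, 2637, 1579, 4101 and 2793 at 1.5-fold. These alternatives test fewer genes or change the size asked for. Of the 8 genes, 3 instead of 5, 3 instead of 5, 2 instead of 4 and 3 instead of 6 were called with a mean of at least 10 CPM in IL-17A WT over untreated WT, Il17rc KO and Il17rd KO over IL-17A WT, and Il17rd KO over untreated WT, since fewer genes passed. At 4-fold 0 instead of 3 and 2 instead of 6 were called in Il17rc KO and Il17rd KO over untreated WT. At 1.5-fold 7 instead of 4 were called in Il17rd KO over IL-17A WT and 4 instead of 1 in Il17rc KO over Il17rd KO.

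Library totals, DESeq2 size factors, upper-quartile factors and no filter kept each of these counts within 1.5 times. Upper-quartile factors called 6 instead of 5 in Il17rc KO over IL-17A WT, adding Ccl2. Library totals moved the median of all genes by 0.113 in Il17rd KO over untreated WT, where 71.8% instead of 61.5% of calls were then higher and Ccl2 was no longer called. With the prior count in the 2-fold limit, chosen after seeing the data, 2477 genes were called in IL-17A WT over untreated WT, and the counts of the 8 genes were as given. Of 240 recomputed log2 ratios of the 8 genes, 234 stayed within the counting interval, 6 left it and 0 of those called changed sign.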

Other observations

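Of 12 other growth factor and cytokine genes that act on myeloid or stem cells 6 have a row. In IL-17A WT over untreated WT 2 were higher and 1 lower, with 8.97% of all genes tested higher and 10.7% lower. Il34, a second ligand of the Csf1 receptor and a keratinocyte product that sustains Langerhans cells, had 46 counts in Il17rc KO, 56 in Il17rd KO, 155 in IL-17A WT and 47 in untreated WT. Its knockout levels were thus close to untreated WT, at log2 ratios of -0.09 and 0.15. Lif, a cytokine of the interleukin-6 family, had 349, 372, 672 and 287 counts in the same order.

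In the opposite direction, Vegfa, the main growth factor of blood vessels, had 933, 662, 242 and 495 counts and was lowest in IL-17A WT. Tslp, an epithelial cytokine that acts on dendritic cells, had 2350, 1115, 865 and 777 counts, and was called higher in Il17rc KO than in IL-17A WT and than in Il17rd KO, at 1.40 and 1.11. Kitl, the growth factor of mast cells and melanocytes, had 766, 592, 471 and 245 counts, the lowest in untreated WT. In Il17rc KO over IL-17A WT 2 of the 6 were higher and 1 lower, and in Il17rd KO 1 was higher and 1 lower. Of all genes tested, 6.22% were higher and 4.84% lower in Il17rc KO, and 6.27% higher and 3.73% lower in Il17rd KO.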
